A study of Mus musculus with 11 samples.

Results

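The cholesterol and fatty acid synthesis genes examined here were 32 genes picked by symbol from 19933 genes that had a probe set of their own on the array. They were 17 enzymes of sterol synthesis, 5 genes that regulate sterol supply and 10 genes of fatty acid synthesis, elongation and desaturation. For each gene, the probe set named for that symbol alone was used, and where several existed the one with the highest mean level over the 11 arrays. Idi1, Fdft1 and Acaca had more than 1 probe set, and in each case the second moved the same way.

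Cells make cholesterol from acetyl-CoA through mevalonate, isoprenoid units, squalene and lanosterol. The transcription factors SREBP-2 and SREBP-1, encoded by Srebf2 and Srebf1, drive the genes of sterol and fatty acid synthesis. When sterols are scarce, the escort protein SCAP carries the SREBP precursors out of the endoplasmic reticulum for cleavage, and INSIG-1 holds them back when sterols are plentiful. Fatty acid synthesis starts from citrate through ACLY, acetyl-CoA carboxylase and fatty acid synthase, and elongases and desaturases then set chain length and double bonds. Erythroid progenitors divide fast and build new membrane, whereas classical dendritic cells of the spleen take up and process material from other cells.

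The study compared mice with no, 1 or 2 copies of a gfp allele of Zbtb46, which encodes a zinc finger transcription factor of classical dendritic cells and of the early erythroid and endothelial lineages. All mice were on the C57Bl/6 background and were analysed at steady state. The wild type (WT) carried Zbtb46+/+, the heterozygote (Het) Zbtb46gfp/+ and the knockout (KO) Zbtb46gfp/gfp. From bone marrow of each genotype, 3 stages were sorted as lineage-negative, CD117-positive cells without CD41 or CD16/32. Pre MegE, the shared precursor of megakaryocytes and red cells, was CD150+ CD105-. Pre CFU-E, the next erythroid stage, was CD150+ CD105lo, and CFU-E, the committed erythroid colony-forming stage, was CD150- CD105+. From spleen, CD4+ dendritic cells (DC) of WT and KO mice were sorted as positive for CD11c, MHCII, CD172, CD11b and CD4 and negative for B220 and CD8. Each combination was hybridised once, giving 9 progenitor arrays and 2 DC arrays. The sources used here give no age, number of mice or pooling, and leave unsaid if a genotype's 3 stages shared animals.

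Because each group held 1 array, the 3 genotypes served as the repeats of a stage, so a p-value speaks only of how well these arrays agree. In sorted bulk RNA, fewer cells that carry a transcript and less of it per cell cannot be told apart. The erythroid marker list, 6 of 9 genes found, had a mean level of 10.94 to 11.04 (log2 intensity) in Pre MegE, 11.48 to 11.51 in Pre CFU-E and 11.76 to 11.8 in CFU-E, against 7.86 and 8.06 in DC. The 10 classical DC markers averaged 11.89 and 12.08 in DC and 7.42 to 7.82 in progenitors, and 6 macrophage markers averaged 10.76 and 10.42 in DC against 6.77 to 7.09. Granulocyte and monocyte markers were present in all progenitors, with means of 10.94 to 11.15 in Pre MegE, 10.06 to 10.37 in Pre CFU-E and 9.93 to 10.19 in CFU-E, and the 5 stem and multipotent progenitor markers averaged 9.41 to 9.6 in Pre MegE, 7.68 to 7.73 in Pre CFU-E and 7.06 to 7.18 in CFU-E. Means of the megakaryocyte list, 4 of 6 genes found, were 9.87 to 10.03, 8.37 to 8.47 and 8.13 to 8.16 in the same order, and those of the 4 mast cell markers 8.98 to 9.27, 7.68 to 7.85 and 6.95 to 7.06. Zbtb46 itself stood at 9.67 in WT DC and 8.02 in KO DC, and at 8.87, 8.62 and 7.5 in WT, Het and KO CFU-E. In Pre MegE it was 7.52 in WT, 7.67 in Het and 7.71 in KO, lowest in WT and all below the medians of their arrays, and whether its probe set lies in the replaced part of the gene was not tested. The 3 WT progenitor arrays stood apart in sex-linked genes: Xist was 11.52 to 12.31 there and 5.86 to 6.38 on the 6 Het and KO progenitor arrays, while the Y-linked Eif2s3y was 10.36 to 10.81 on all 9. Both DC arrays had Xist at 13.21 and 13.28 and Eif2s3y at 3.83 and 3.78. Stage results are therefore also given without the WT arrays, where a call was lost without them.

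**Figure D1:**
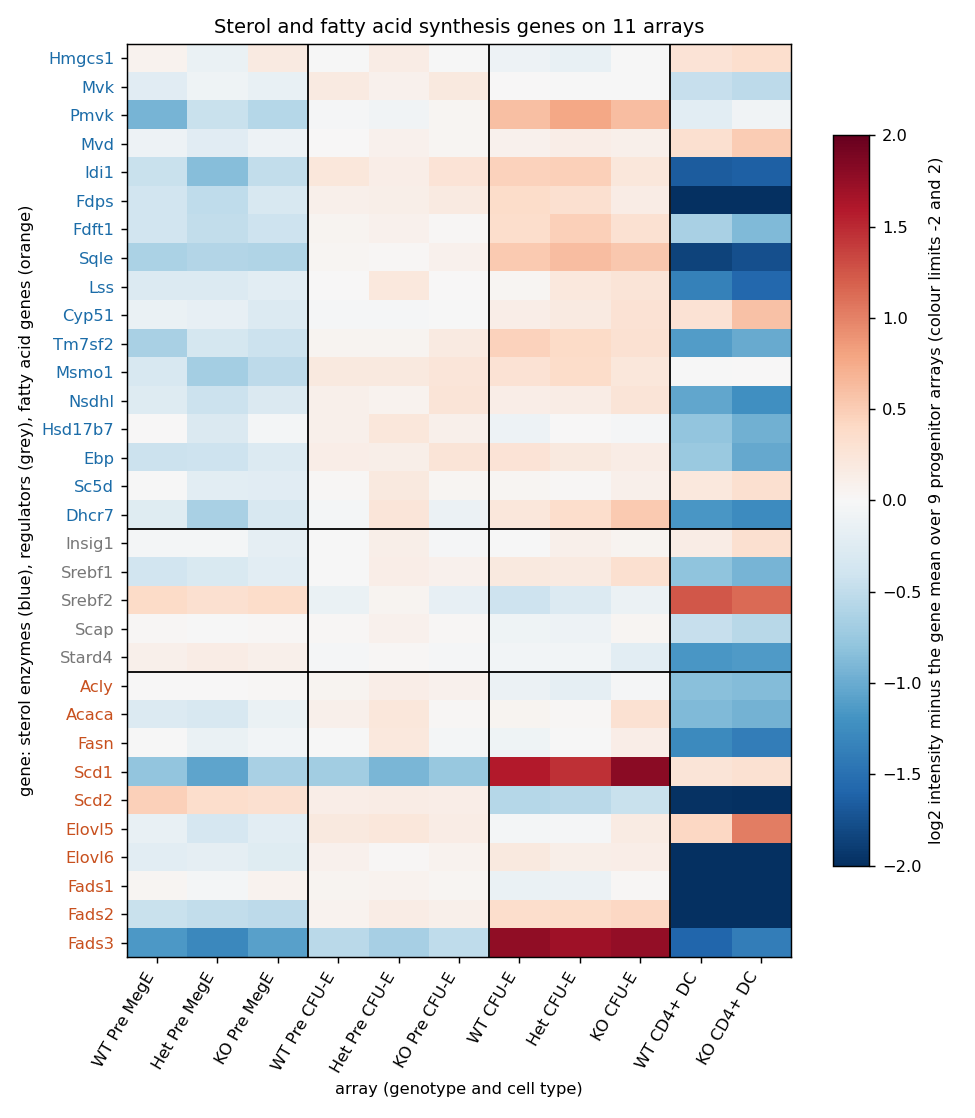
Heat map of the 32 genes (rows) on the 11 arrays (columns, by cell type and genotype). Colour is the log2 intensity minus the mean of that gene over the 9 progenitor arrays, with the colour scale ending at -2 and 2; most sterol enzymes go from blue in Pre MegE to red in CFU-E, Scd1 and Fads3 are darkest in CFU-E, and Fdps, Elovl6, Fads1 and Fads2 are below -2 on both DC arrays.

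The first comparison asked how the genes differed between Pre MegE and Pre CFU-E, the entry into the erythroid branch. Of the 17 sterol enzymes, 16 rose and none fell, with a median difference of 0.47 on the log2 scale, beside a median of 0.04 over all 10701 genes fitted. Over all genes, 37.1% were called higher and 29.3% lower at an adjusted p below 0.05 (limma, Benjamini-Hochberg). The rise ran through the whole route: 5 of 6 enzymes of the mevalonate part, 3 of 3 of the squalene part and 8 of 8 enzymes after lanosterol were higher in Pre CFU-E. Hmgcs1, which makes HMG-CoA at the head of the route, was the 1 enzyme that was not called, with a difference of 0.01 (95% interval -0.17 to 0.19).

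Among the mevalonate enzymes, the 2 with the largest change across the stages were Pmvk and Idi1. Pmvk, phosphomevalonate kinase, was at 7.54, 8.03 and 7.9 (log2 intensity; WT, Het and KO) in Pre MegE, 8.45, 8.4 and 8.51 in Pre CFU-E, and 9.07, 9.24 and 9.09 in CFU-E. The stages did not overlap, and the 3 Pre MegE arrays were the most spread, the WT array being lowest and below the median of its array. Pmvk rose by 0.63 (SE 0.0902, adjusted p = 0.000202, limma) at the first step and by 0.68 (adjusted p = 0.000272) at the second, so CFU-E had 2.48 times the Pre MegE intensity, or at least 2.36 times with the WT Pre MegE value set to its array median. Idi1, isopentenyl-diphosphate isomerase, was at 9.5, 9.09 and 9.44 in Pre MegE, 10.16, 10.08 and 10.22 in Pre CFU-E, and 10.4, 10.41 and 10.16 in CFU-E. Its Pre MegE arrays were all below the others, while Pre CFU-E and CFU-E overlapped, the KO array being at 10.22 in the former and 10.16 in the latter. Idi1 rose by 0.81 (SE 0.0997, adjusted p = 7.46e-05, limma) at the first step, the largest such rise among the sterol enzymes, and the 0.17 at the second step was not called (adjusted p = 0.198).

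Fdps, which joins the isoprenoid units to farnesyl diphosphate, rose by 0.54 at the first step (SE 0.0688, adjusted p = 9.55e-05, limma). Its levels were 10.18, 10.06 and 10.24 in Pre MegE, 10.67, 10.68 and 10.74 in Pre CFU-E, and 10.93, 10.88 and 10.72 in CFU-E. Pre MegE lay below all others, and Pre CFU-E overlapped CFU-E. Mvk, mevalonate kinase, rose by 0.31, and Mvd, which decarboxylates mevalonate diphosphate, by 0.19, from 8.31, 8.18 and 8.31 to 8.42, 8.5 and 8.45. Mvd changed little after that, with 8.5, 8.54 and 8.51 in CFU-E. The Mvd call at the first step was lost when the Het Pre MegE or the Het Pre CFU-E array was left out, with adjusted p up to 0.0694.

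In the squalene part, Sqle, the squalene epoxidase at which oxygen first enters the route, had the most even change. It stood at 9.78, 9.82 and 9.8 in Pre MegE, at 10.45, 10.43 and 10.5 in Pre CFU-E, and at 10.93, 11.02 and 10.94 in CFU-E. Each stage formed a narrow band and no 2 stages overlapped. Sqle rose by 0.66 and then 0.5 (SE 0.0474 for both, adjusted p = 2.47e-06 and 2.94e-05, limma), a 2.25-fold span. Fdft1, squalene synthase, rose at both steps, by 0.49 and 0.32. Lss, which closes the ring to lanosterol, rose by 0.32 at the first and was not called at the second, at 0.09.

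Of the enzymes after lanosterol, Msmo1, the sterol C4-methyl oxidase, rose most at the first step, by 0.72 (adjusted p = 4.55e-05, limma), followed by Tm7sf2, a sterol reductase, at 0.57. Tm7sf2 was at 7.83, 8.13 and 8.06 in Pre MegE, 8.54, 8.54 and 8.66 in Pre CFU-E, and 8.94, 8.87 and 8.79 in CFU-E. Its stages did not overlap, and the span was 0.86 (SE 0.0797, adjusted p = 6.67e-06). Ebp, the sterol isomerase, rose by 0.54, Nsdhl, a C4 decarboxylase, by 0.47, Dhcr7, the last reductase, by 0.43, Hsd17b7 by 0.25 and Sc5d, the C5 desaturase, by 0.24. Cyp51, the lanosterol demethylase, went from 8.53, 8.5 and 8.39 to 8.64, 8.64 and 8.66 and then to 8.8, 8.85 and 8.96, without overlap between stages. Its first step of 0.17 was called (adjusted p = 0.0271, limma), but with adjusted p from 0.00308 to 0.166 over 19 alternatives, and at 0.0509 without the WT arrays. Across the 16 enzymes called at the first step, 11 were called under each alternative run, and Mvd, Cyp51, Hsd17b7, Sc5d and Dhcr7 were lost under at least 1 that left out single arrays.

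**Figure D2:**
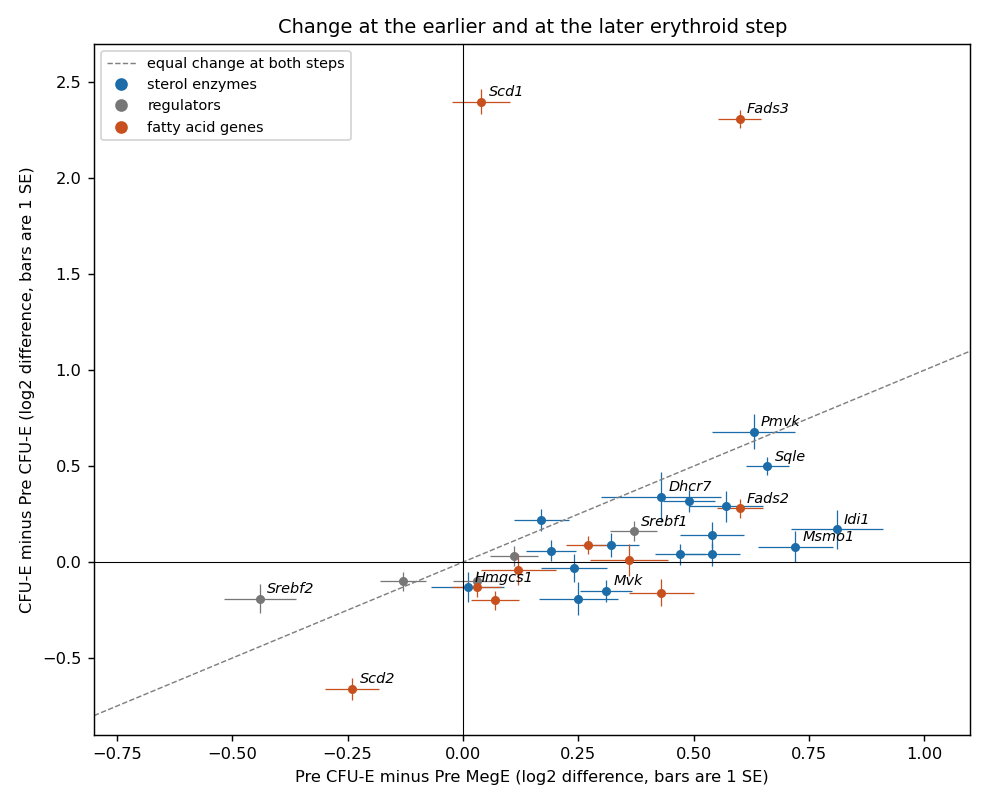
Difference at the earlier step (Pre CFU-E minus Pre MegE, horizontal, log2) against that at the later step (CFU-E minus Pre CFU-E, vertical, log2) for the 32 genes, with bars of 1 SE and the dashed line marking equal change at both. Most sterol enzymes (blue) lie right of 0 and below the line, Pmvk lies near it at 0.63 and 0.68, and Scd1 and Fads3 stand alone at 2.4 and 2.31 on the vertical axis; the steps share the Pre CFU-E arrays.

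From Pre CFU-E to CFU-E, 5 of the 17 sterol enzymes rose, none fell and 12 were not called, with a median of 0.09 beside 0 for all genes. At this step 18.7% of all genes were called higher and 25.3% lower. The 5 were Pmvk, Sqle, Fdft1, Tm7sf2 and Cyp51, of which Tm7sf2 and Cyp51 lost the call in some alternatives; Tm7sf2 was at 0.23 (adjusted p = 0.0636, limma) without the WT arrays. Between the first and last stage, Pre MegE and CFU-E, 15 sterol enzymes were higher and none lower, the exceptions being Hmgcs1 at -0.12 and Hsd17b7 at 0.07, and the median was 0.58 beside 0.05. The background for the span was 41.5% of genes called higher and 35.1% lower. Mvk (0.16) and Sc5d (0.2) were lost from these 15 in some alternatives, Mvk also without the WT arrays (0.12, adjusted p = 0.184, limma).

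The size of the steps was compared directly. The later difference minus the earlier one, signed, was called lower in 7 of 17 sterol enzymes, higher in none and not called in 10, with a median of -0.27 beside -0.06 over all genes. Over all genes 14.6% were higher and 24.1% lower by this measure. Idi1 (-0.64, adjusted p = 0.0171, limma) and Msmo1 (-0.63, adjusted p = 0.00724) had the lowest values, and the others were Ebp, Mvk, Hsd17b7, Nsdhl and Fdps, at -0.5 to -0.4. Without the WT arrays, Mvk, Idi1, Fdps and Hsd17b7 lost the call (adjusted p 0.0515 to 0.0704, limma) and the count was 3, and without the WT Pre CFU-E or the KO Pre CFU-E array it was 4. Hsd17b7 lost the call in 9 of 17 alternatives, Fdps in 6, and Mvk and Idi1 in 2 each. No other of the 7 was lost in an alternative. The markers named above moved at the same time: the means of the stem, granulocyte, megakaryocyte and mast cell lists also differed more at the first step than at the second, and their part in the sterol results was not tested.

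Hmgcs1 had no called difference between the progenitor stages. It was at 9.4, 9.2 and 9.51 in Pre MegE, 9.33, 9.48 and 9.33 in Pre CFU-E, and 9.23, 9.18 and 9.33 in CFU-E, all within 9.18 to 9.51. The 3 stages overlapped. Promoter sequence for 25 of the 32 genes, 31 windows of 300 bases from 250 before to 50 after an annotated start, was taken from RefSeq (mouse build GRCm38.p6), with Sqle, Fdps, Fdft1, Scd1, Scd2, Fads1 and Stard4 unmatched. Both strands were searched for the core of the sterol regulatory element (TCACNCCAC), the CCAAT box bound by NF-Y, the GC box GGGCGG bound by Sp1 family factors, the E-box CACGTG and the GATA motif AGATAA. Matches of different motifs were allowed to overlap. All 14 sterol enzyme genes with a window held a CCAAT box in at least 1 of them (14 of 17 windows), compared with 37.4% of all 32851 windows. A GC box was in 13 of these 14 genes (14 of 17 windows), compared with 35.7% of all windows. The sterol element core was in 1 gene, Hmgcs1, with its first base 137 bases before the start, and in 1.24% of all windows. The E-box was in 3 of 14 (7.15% of all windows), and AGATAA in no window of the 25 genes (11.2% of all windows). The windows of Hmgcs1 and of Idi1 and Msmo1, the windowed sterol enzymes with the largest rise at the first step, are shown on the gene's strand. Capitals mark CCAAT boxes, written ATTGG where the box is on the opposite strand, and, in Hmgcs1, the sterol element core.
Hmgcs1, chr13:119690101-119690400, plus strand: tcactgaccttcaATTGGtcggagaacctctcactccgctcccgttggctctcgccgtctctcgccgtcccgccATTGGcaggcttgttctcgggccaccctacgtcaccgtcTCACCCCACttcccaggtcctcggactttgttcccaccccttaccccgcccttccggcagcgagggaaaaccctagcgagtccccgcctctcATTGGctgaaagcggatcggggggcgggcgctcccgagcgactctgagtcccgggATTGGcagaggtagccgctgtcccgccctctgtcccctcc
Idi1, chr13:8885356-8885655, plus strand: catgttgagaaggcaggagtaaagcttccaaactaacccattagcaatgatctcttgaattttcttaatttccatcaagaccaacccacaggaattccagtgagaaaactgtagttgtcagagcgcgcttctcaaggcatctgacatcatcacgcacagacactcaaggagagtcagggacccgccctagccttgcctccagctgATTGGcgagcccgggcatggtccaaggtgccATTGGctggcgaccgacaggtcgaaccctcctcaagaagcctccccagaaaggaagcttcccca
Msmo1, chr8:64733529-64733828, minus strand: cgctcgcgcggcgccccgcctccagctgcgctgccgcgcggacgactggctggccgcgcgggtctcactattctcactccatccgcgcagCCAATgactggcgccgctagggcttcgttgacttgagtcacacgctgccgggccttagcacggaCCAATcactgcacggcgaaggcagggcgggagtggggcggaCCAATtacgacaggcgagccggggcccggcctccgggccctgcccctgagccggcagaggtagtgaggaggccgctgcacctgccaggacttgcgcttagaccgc
These windows hold 4, 2 and 3 CCAAT boxes in that order, and only that of Hmgcs1 holds the element core. Mvk and Nsdhl, which rose at the first step, had 5 and 4 CCAAT boxes in their windows. Only exact letters were searched, and a relation of these counts to the stage differences was not tested. A match of letters is a description of the window and not a measured binding site.

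The regulators did not move together. At the first step 1 of 5 rose and 2 fell, at the second 1 rose, and over the span 2 were higher and 2 lower. The median over the span was -0.07, beside 0.05 for all genes. Of all genes, 37.1% were called higher and 29.3% lower at the first step, and 18.7% and 25.3% at the second. Over the span the shares were 41.5% and 35.1%, so the regulator split was near that of all genes. Srebf2 fell while Srebf1 rose. Srebf2 was at 11.22, 11.16 and 11.2 in Pre MegE, 10.7, 10.89 and 10.68 in Pre CFU-E, and 10.43, 10.56 and 10.72 in CFU-E. Its 3 Pre MegE arrays were above all 6 others, while Pre CFU-E and CFU-E overlapped. The change was -0.44 (SE 0.0771, adjusted p = 0.000733, limma) at the first step, -0.19 (adjusted p = 0.0777) at the second and -0.63 over the span. Srebf1 was at 9.8, 9.88 and 9.97 in Pre MegE, 10.18, 10.31 and 10.27 in Pre CFU-E, and 10.37, 10.36 and 10.5 in CFU-E. Its stages did not overlap. Srebf1 rose by 0.37 (SE 0.0516, adjusted p = 0.000174, limma) and by 0.16 (adjusted p = 0.032). The second call was lost in 9 of 19 alternatives, among them that without the WT arrays (0.14, adjusted p = 0.194, limma). The SREBP-1a and SREBP-1c forms share the gene, and the probe set was not split by them.

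Stard4, a carrier that moves sterol between membranes, was at 10.63, 10.67 and 10.62 in Pre MegE, 10.5, 10.54 and 10.5 in Pre CFU-E, and 10.47, 10.46 and 10.31 in CFU-E. Its span of -0.23 was called (adjusted p = 0.00214, limma) but lost in 1 of 19 alternatives, with each array centred on its median (adjusted p = 0.0772). The first step of -0.13 (adjusted p = 0.0455, limma) was lost in 11 of 19, including that without the WT arrays (-0.13, adjusted p = 0.146). Insig1 stood at 10.2, 10.2 and 10.06, then 10.22, 10.35 and 10.21, then 10.23, 10.34 and 10.29. Pre CFU-E and CFU-E overlapped and Pre MegE lay just below both. The span of 0.13 was called (adjusted p = 0.0435, limma) but lost in 11 of 19 alternatives. Scap was between 11 and 11.19 on the 9 arrays and was called at no step. The later change was not called different from the earlier one for any of the 5.

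The fatty acid genes held both small differences and the largest of the 32. At the first step 5 of 10 rose and 1 fell (median 0.2), beside 37.1% and 29.3% of all genes (median 0.04). At the second 3 rose and 2 fell (median -0.01), beside 18.7% and 25.3% (median 0). Over the span 6 rose and 1 fell (median 0.32), beside 41.5% and 35.1% (median 0.05). The 3 and the 6 include Scd1, which was dim before CFU-E. Of the 3 enzymes that lead to palmitate, 1 was called higher over the span and none lower. Acly, which supplies cytosolic acetyl-CoA, was between 11.01 and 11.32 and fell by 0.2 at the second step (adjusted p = 0.0128, limma), a call lost without the WT arrays (-0.21, adjusted p = 0.0791). Acaca, acetyl-CoA carboxylase, rose by 0.36 at the first step (adjusted p = 0.00446) and differed by 0.01 at the second, and its span of 0.37 was called (adjusted p = 0.00287). Fasn, fatty acid synthase, was between 11.19 and 11.53, with a span of 0.08 (95% interval -0.1 to 0.26) that was not called. Of the elongases, Elovl6, which extends palmitate, rose by 0.27 at the first step, and Elovl5, which extends polyunsaturated chains, rose by 0.43 and then differed by -0.16 (adjusted p = 0.0998). The Elovl5 span of 0.27 was lost in some alternatives.

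The stearoyl-CoA desaturases Scd1 and Scd2, which put the first double bond into saturated chains, moved in opposite directions. Scd1 was at 6.58, 6.32 and 6.73 in Pre MegE and at 6.68, 6.47 and 6.62 in Pre CFU-E, and then at 8.97, 8.84 and 9.18 in CFU-E. The first 6 arrays overlapped, all lay below the medians of their arrays (7.66 to 7.77), and the 3 CFU-E arrays were far above them. Scd1 passed the filter on dim genes only through CFU-E and DC, and an intensity below the array median holds background as well as signal. The rise to CFU-E is therefore given as a bound: against the medians of the Pre CFU-E arrays, Scd1 was at least 2.49-fold higher in CFU-E (adjusted p = 2.45e-08, limma, for the measured difference of 2.4). Because the filter kept the gene through the stage where it is high, that p-value lends no support of its own, and the 2 dim stages give no measured first step. Scd2 was at 12.5, 12.37 and 12.34 in Pre MegE, 12.15, 12.17 and 12.16 in Pre CFU-E, and 11.45, 11.49 and 11.57 in CFU-E. No 2 stages overlapped. Scd2 fell by 0.24 (adjusted p = 0.00488) and by 0.66 (SE 0.0581, adjusted p = 1.91e-05), so its larger fall was also at the later step, with a difference of -0.42 (adjusted p = 0.0105). In the RefSeq gene order on chromosome 19, Scd3, Scd2, Scd4 and Scd1 lie next to each other; no level of Scd3 or Scd4 was fitted.

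**Figure D3:**
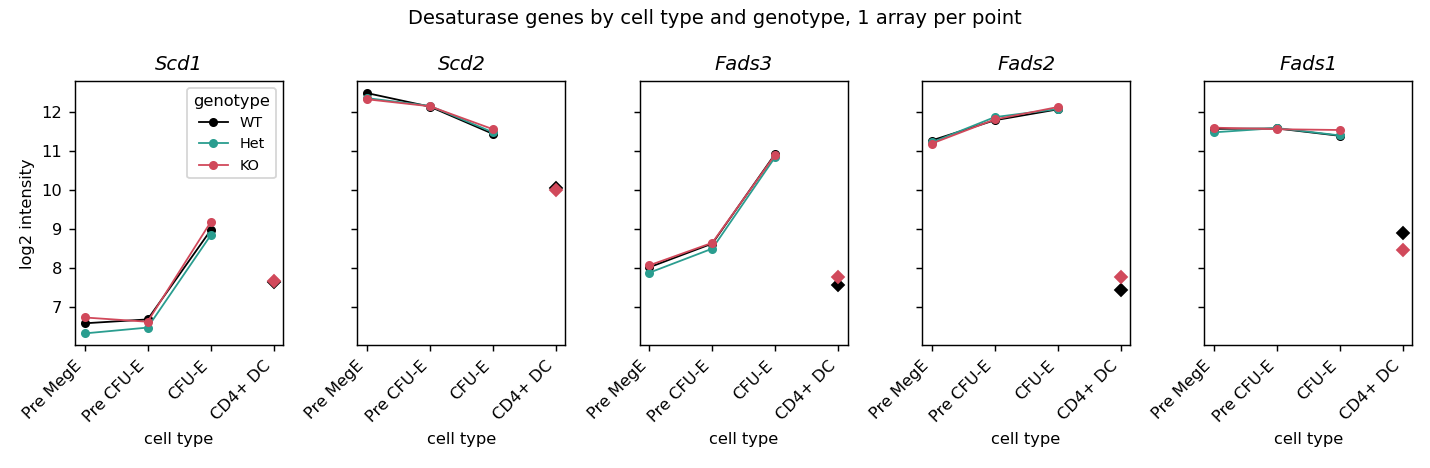
Log2 intensity (vertical) of Scd1, Scd2, Fads3, Fads2 and Fads1 in Pre MegE, Pre CFU-E, CFU-E and CD4+ DC (horizontal), 1 point per array, with lines joining the 3 progenitor stages of a genotype and diamonds for DC. Scd1 and Fads3 turn upward at CFU-E in all 3 genotypes, Scd2 declines, Fads1 stays between 11.4 and 11.61 in progenitors, and in DC Fads2 is at 7.43 and 7.76.

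The front-end desaturase genes Fads1, Fads2 and Fads3 are neighbours on chromosome 19, in the RefSeq order Fads3, Fads2, Fads1. FADS2 and FADS1 insert the double bonds that turn dietary linoleic and linolenic acid into longer polyunsaturated chains, and FADS3 is a related desaturase that acts on sphingoid bases. Fads3 was at 8.02, 7.88 and 8.07 in Pre MegE, 8.63, 8.5 and 8.65 in Pre CFU-E, and 10.94, 10.86 and 10.92 in CFU-E. Each stage lay clear of the others. Fads3 rose by 0.6 (SE 0.0468, adjusted p = 4.15e-06, limma) and by 2.31 (adjusted p = 7.7e-09), a 7.55-fold span and the largest of the 32 genes as measured. The span of Scd1, dim before CFU-E, is known only as at least 2.35-fold, so these 2 genes cannot be ranked. The later step of Fads3 was larger by 1.71 (adjusted p = 3.76e-06, limma). Fads2 had the opposite balance. It was at 11.28, 11.23 and 11.2, then 11.8, 11.88 and 11.82, then 12.08, 12.09 and 12.14, again without overlap. Fads2 rose by 0.6 (SE 0.0496, adjusted p = 6.09e-06) and by 0.28 (adjusted p = 0.00176), with a smaller later step (-0.32, adjusted p = 0.0162) that was lost without the WT arrays (-0.37, adjusted p = 0.0588). Fads1 was at 11.58, 11.49 and 11.61, then 11.59, 11.6 and 11.57, then 11.4, 11.41 and 11.55. Its stages overlapped, and none of its differences, 0.03, -0.13 and -0.1, was called. The start windows of the 2 that rose are shown because the genes are adjacent and differ at the later step; capitals mark CCAAT boxes on either strand.
Fads3, chr19:10041298-10041597, plus strand: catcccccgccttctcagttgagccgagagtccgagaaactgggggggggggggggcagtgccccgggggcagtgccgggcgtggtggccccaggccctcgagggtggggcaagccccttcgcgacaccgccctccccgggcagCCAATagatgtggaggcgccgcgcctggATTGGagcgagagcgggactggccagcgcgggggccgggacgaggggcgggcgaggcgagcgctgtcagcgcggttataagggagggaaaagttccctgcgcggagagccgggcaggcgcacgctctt
Fads2, chr19:10101454-10101753, minus strand: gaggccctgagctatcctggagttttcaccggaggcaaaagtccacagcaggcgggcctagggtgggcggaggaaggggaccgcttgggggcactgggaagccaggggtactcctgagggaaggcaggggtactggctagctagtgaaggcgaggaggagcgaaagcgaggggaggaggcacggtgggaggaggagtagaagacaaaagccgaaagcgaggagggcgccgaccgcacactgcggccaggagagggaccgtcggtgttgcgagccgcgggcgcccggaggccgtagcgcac
Fads3 has 2 CCAAT boxes and 2 GC boxes in its window, and Fads2 has none of the former and 1 of the latter. Over the 7 fatty acid genes with a window, 4 held CCAAT and 3 a GC box, compared with 37.4% and 35.7% of all windows.

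In the comparison of step sizes, 14.6% of all genes were called higher and 24.1% lower. The fatty acid genes called higher (later minus earlier, signed) were Fads3 and Scd1, whose earlier step lies among dim values. Those called lower were Elovl5, Scd2, Fads2 and Acly. Acly lost this call in 11 of 17 alternatives and Fads2 in 5, quantile normalization among them for both. The count of 4 was 2 without the WT arrays, where Acly (-0.29, adjusted p = 0.145) and Fads2 were lost, and 2 without the WT Pre CFU-E or the Het Pre CFU-E array. In Het and KO alone, without the WT arrays, the second step of Fads3 was 2.31 (adjusted p = 6.03e-06, limma). Centring each array on its median moved the all-gene median from 0.04 to 0.12 at the first step and from 0.05 to 0.17 over the span, and the calls to 47.1% higher and 23.6% lower at the first step and 53.2% and 28.8% over the span. The sterol enzyme median was then 0.55 and 0.7.

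Other genes of the pathways were read from lists of their neighbours in metabolism. Of other isoprenoid and sterol enzymes, 8 of 13 could be fitted, and 7 rose over the span and none fell, led by Nus1 (0.61), a subunit of the dolichol-making enzyme, and the farnesyltransferase subunits Fnta (0.58) and Fntb (0.5). Of genes that process or degrade SREBP, 3 of 6 rose and none fell, namely Fbxw7 (0.44), Insig2 (0.24) and Rnf139 (0.2). Sterol uptake, storage and export went the other way, with 2 of 12 higher and 8 lower. The exporter Abcg1 fell by 2.75 over the span (adjusted p = 2.42e-10, limma). Abca1, another exporter, was below the array median in CFU-E and was at least 3.02-fold lower there than in Pre MegE (adjusted p = 2.79e-08). Nceh1, a cholesteryl ester hydrolase, fell by 1.4. Of other fatty acid synthesis genes, 7 of 13 rose and 3 fell, with Hacd3 at 0.91. Hacd4 and Elovl7 were below the array medians in CFU-E and at least 1.37-fold and 1.46-fold lower there. Of fatty acid activation and oxidation genes, 14 of 22 rose and 4 fell, and Etfa rose by 0.99. Acsl6, an acyl-CoA synthetase, and Cpt1c were below the array medians in Pre MegE, and were at least 5.58-fold and 1.75-fold higher in CFU-E (adjusted p = 7.45e-10 for Acsl6, limma). These bounds take the array median for each dimmer value, and the counts of these lists cover only genes that passed the filter, some through 1 stage. Acsl6 and Abca1 passed it only through the stages where they are high, so their p-values lend no support of their own. The share of all genes called in each direction over the span is the one given above.

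Between genotypes in the progenitors, no member of the 32 was called. For KO against WT the differences ran from -0.08 (Idi1) to 0.14 (Pmvk), with 95% intervals between -0.31 and 0.35 and a lowest adjusted p of 0.811 (limma); 0.14% of all genes (15 genes) were called. For Het against WT they ran from -0.2 (Scd1) to 0.2 (Pmvk), with intervals between -0.39 and 0.41 and a lowest adjusted p of 0.824; 0.0374% of all genes (4 genes) were called. For KO against Het they ran from -0.11 (Insig1) to 0.3 (Scd1), with intervals between -0.27 and 0.44 and a lowest adjusted p of 0.957; 0% of all genes were called, with 255 at an unadjusted p below 0.05. The log2 of the 1.5-fold size used below for the DC pair is larger than each bound in all 3 comparisons. These bounds are for a single genotype difference per gene, averaged over the 3 stages, which served as its repeats. A genotype change confined to a single stage was not tested. If the stages of a genotype shared animals, spread between animals may be missing from these intervals. Scd1 was below the array median on 6 of the 9 progenitor arrays, so its interval does not bound such a change. The WT progenitor arrays also differed from the others in Xist, so genotype and that difference cannot be told apart in comparisons with WT.

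The comparison of CD4+ DC with the progenitors, averaged over their stages and fitted with genotype, covered 11560 genes. All 32 were fitted: 8 were higher in DC, 22 lower and 2 not called. Lower calls were common, as 64.6% of all genes were called lower and 25.3% higher, with a median of -0.59. The DC arrays had upper quartiles of 641 and 605 (linear intensity) against 968 to 1009 in progenitors, and after quantile normalization the all-gene median was -0.1, with 47.7% lower and 40.4% higher. Members are therefore described beside that median. Below it lay 10 of 17 sterol enzymes, 2 of 5 regulators and 8 of 10 fatty acid genes, with either scaling the same genes, and 12 of the 32 lay above it with both. Sex-linked genes and the organ of origin differed between DC and progenitors together with cell type and cannot be told apart from it; Nsdhl and Ebp are X-linked.

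**Figure D4:**
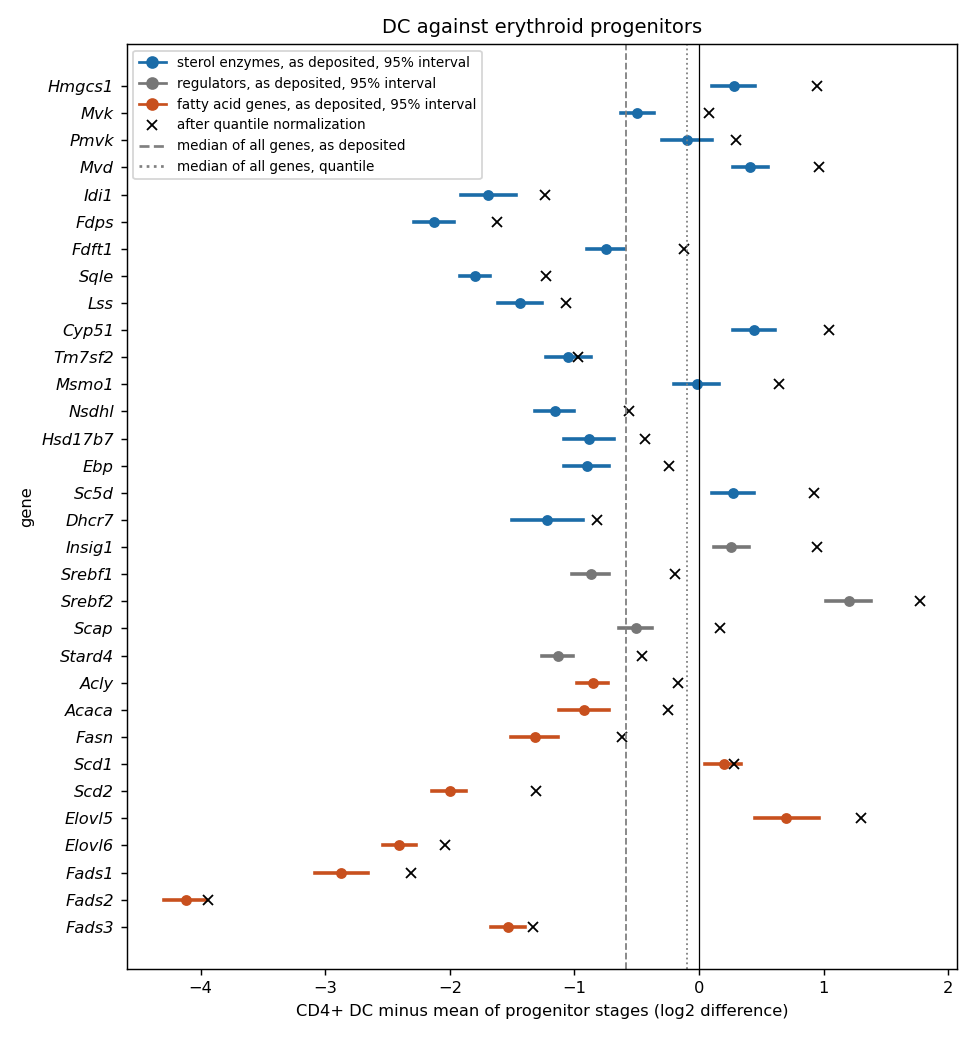
Log2 difference of CD4+ DC from the mean of the progenitor stages (horizontal) for each of the 32 genes (vertical), as deposited (points with 95% intervals) and after quantile normalization (crosses). Dashed and dotted grey lines mark the median of all genes, -0.59 as deposited and -0.1 after quantile normalization; Fads2, Fads1, Elovl6, Fdps and Scd2 lie far left and Srebf2 farthest right under both scalings.

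Within the sterol route the DC differences split by enzyme. Fdps was at 8.52 and 8.38 in WT and KO DC, against 10.06 to 10.93 in progenitors, a difference of -2.13 (SE 0.072, 4.37-fold lower, adjusted p = 3.02e-10, limma). Sqle was at 8.55 and 8.65 against 9.78 to 11.02, a difference of -1.8 (adjusted p = 1.05e-10). Idi1, at 8.28 and 8.31, differed by -1.69, and Lss, at 8.23 and 8.02, by -1.44. None of these DC arrays reached the lowest progenitor array. Dhcr7 (-1.22), Nsdhl (-1.16), Ebp (-0.9), Hsd17b7 (-0.88) and Fdft1 (-0.75) were also lower, and Mvk (-0.5) lay above the all-gene median. Tm7sf2 was below the array median on both DC arrays and, as deposited, at least 1.81-fold lower there. Higher in DC were Cyp51, Mvd, Hmgcs1 and Sc5d. Cyp51 was at 8.96 and 9.25 against 8.39 to 8.96, so the WT DC array only met the highest progenitor (0.44, adjusted p = 0.000209). Mvd was at 8.74 and 8.92 against 8.18 to 8.54 (0.41, adjusted p = 8.19e-05). Hmgcs1 (0.28) and Sc5d (0.27) were lost in 1 alternative each, Sc5d without the KO DC array (0.19, adjusted p = 0.101). Pmvk (-0.1) and Msmo1 (-0.02) were not called as deposited and were called higher after quantile normalization, at 0.3 and 0.64. Mvk turned to 0.08 there, and Fdft1 lost its call at -0.12.

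Among the regulators, Srebf2 had the largest positive difference of the 32 in DC. It was at 12.08 and 11.98, above each progenitor array (10.43 to 11.22), by 1.2 (SE 0.0821, 2.3-fold, adjusted p = 8.75e-08, limma). Srebf1 was at 9.37 and 9.26, below all progenitors (9.8 to 10.5), by -0.87 (adjusted p = 2.47e-07) as deposited and by -0.19 (adjusted p = 0.0146) after quantile normalization, where Srebf2 was at 1.77. Their order between DC and progenitors was thus opposite, as it was along the stages. Stard4 was at 9.36 and 9.39 against 10.31 to 10.67 (-1.13, and -0.46 after quantile normalization). Insig1, at 10.38 and 10.55 against 10.06 to 10.35, differed by 0.26 (adjusted p = 0.00264), a call lost without the KO DC array (0.16, adjusted p = 0.0683). Scap differed by -0.51 as deposited and by 0.17 after quantile normalization, so its direction rests on the scaling.

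The fatty acid genes held the largest DC differences. Fads2 was at 7.43 and 7.76 in DC, around the array medians of 7.61 and 7.64, against 11.2 to 12.14 in progenitors. With the WT DC value set to its array median, Fads2 was at least 16.4-fold lower in DC as deposited. The measured difference was -4.12 (adjusted p = 3.92e-12, limma). Fads1 was at 8.89 and 8.46 against 11.4 to 11.61 (-2.87, adjusted p = 2.37e-10). Fads3, at 7.57 and 7.78, lay below even Pre MegE (7.88 to 8.07) as deposited. On that scale it was at least 2.77-fold lower than the mean of the stages, its WT DC value being below the array median. The deposited DC values of all 3 neighbours were thus under every progenitor value. For Fads3 the gap was narrow, 7.78 in KO DC against 7.88 in Het Pre MegE, on arrays with medians of 7.64 and 7.77. Measured from those medians, the KO DC value was not the lower. Elovl6 was at 7.95 and 8.13 (-2.41) and Scd2 at 10.05 and 10 against 11.45 to 12.5 (-2). Fasn (-1.32), Acaca (-0.92) and Acly (-0.85) were lower too. After quantile normalization these 8 were still called lower, from -3.94 (Fads2) to -0.17 (Acly). Fads3 was at -1.33 there, so the bounds given for Fads2 and Fads3 hold for the deposited scale only. Elovl5 and Scd1 were the 2 genes called higher. Elovl5 was at 11.83 and 12.44 against 11.08 to 11.64 (0.7, adjusted p = 0.000148). Scd1, at 7.63 and 7.68, lay at the array medians, between Pre CFU-E and CFU-E. With 6 of the 9 progenitor arrays below their medians, no fold is given for it, and its call was lost without the WT DC array (adjusted p = 0.0931, limma).

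In DC, against the 64.6% of all genes called lower and 25.3% higher, the wider lists had 8 of 8 other isoprenoid and sterol enzymes, 11 of 13 other fatty acid synthesis genes and 21 of 23 activation and oxidation genes called lower. Of the genes that process or degrade SREBP, 4 of 6 were lower and 1 higher, near that share. Uptake, storage and export differed from these in count, with 9 of 13 higher and 3 lower. Among them were Lipa (1.63), the lysosomal acid lipase, and Npc1 (1.53), which moves cholesterol out of lysosomes, named after their values were seen. Macrophage markers were high on the same arrays, and their part in these values was not tested. The counts cover only genes that passed the filter. Nr1h3, of the uptake list, and Pparg were below the array median on all 9 progenitor arrays and passed only through DC. Fntb, Acacb, Hacd1, Acsl6 and Cpt1c were below it on both DC arrays and passed only through progenitors. These list counts are therefore partly set by the filter.

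Within the DC pair, 1 array per genotype gives no test, and 31 of the 32 genes were read, since Tm7sf2 was below the array median on both. Only Elovl5 passed 1.5-fold, at 11.83 in WT and 12.44 in KO (0.61, 1.52-fold), but not once array medians were made equal (0.58). Over all 10554 genes read, 0.758% were higher and 1.77% lower by that fold. Next were Fads1 (-0.43), Cyp51 (0.3) and Ebp (-0.28). Fads2, at 7.43 in WT and 7.76 in KO, was below the array median in WT and has no rank here. The KO difference in DC was then set against that in progenitors in 1 fit, in which the spread of a single DC array is taken to equal that of the rest. It was called for 1 of 32 genes, beside 4.57% of all genes. Fads1 had KO minus WT values of 0.03, -0.02 and 0.15 in the 3 stages and -0.43 in DC, a difference of -0.48 (SE 0.107, adjusted p = 0.0419, limma). The call was lost in 6 of 15 alternatives: without the filter on dim genes (0.0682), and without the WT Pre CFU-E (0.112), WT CFU-E (0.0941), Het Pre MegE (0.0625), Het CFU-E (0.0777) or KO Pre MegE (0.109) array, all adjusted p. Elovl5 had values of -0.08, -0.05 and 0.22 in the stages and 0.61 in DC, a difference of 0.58 (SE 0.141) that was not called at an adjusted p of 0.055, with 0.0194 to 0.138 over 15 alternatives.

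**Figure D5:**
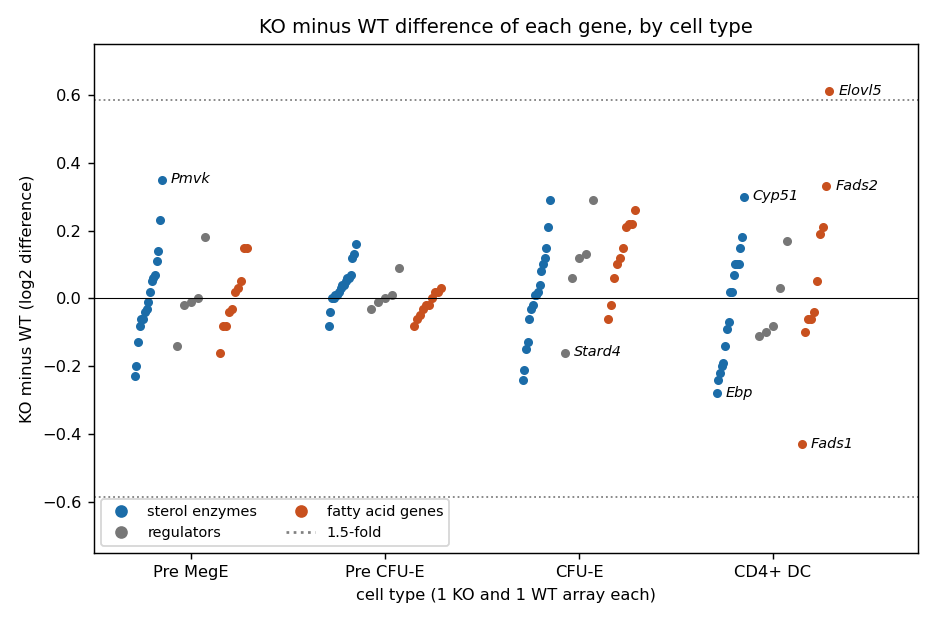
KO minus WT log2 difference (vertical) of each gene within Pre MegE, Pre CFU-E, CFU-E and CD4+ DC (horizontal), 1 KO and 1 WT array each, coloured by gene group; dotted lines mark 1.5-fold. In the 3 progenitor stages all points lie within the lines, the farthest being Pmvk in Pre MegE at 0.35, and in DC Elovl5 lies past the upper line at 0.61 and Fads1 lowest at -0.43.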

How the data were processed

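RNA from sorted cells was hybridised to 11 mouse gene arrays. The deposited values are linear intensities per probe set, and RMA, a method that corrects background, normalizes and sums up probes, is named in the submitters' processing notes, without a version. The intensities were set on the log2 scale without further scaling. A gene was fitted where it was at or above the array median on at least 2 arrays of a fit (10701 genes on the 9 progenitor arrays, 11560 on all 11). Differences come from limma 3.58.1 (R 4.3.3), with cell type and genotype as terms and moderated variances, and p-values were adjusted over all fitted genes by Benjamini-Hochberg. The DC pair was read by a 1.5-fold threshold alone. The number of arrays limits the precision. Only the contrast of CFU-E with Pre MegE was checked on simulated data, with independent errors and known differences added to some genes in CFU-E. The genotype, DC and KO effect comparisons were not checked in this way. Per-array values are given for the 4 members of each group with the largest span, those extreme in DC (2 at each end per group) and those past a threshold between genotypes. From each wider list up to 3 called genes with the largest span are named. The members, lists and tests were chosen with earlier results of these data known. Alternatives covered scaling, filter, probe set choice, weights, trend, terms and left-out arrays, and leaving out the WT arrays was chosen after seeing the data.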

Additional observations from a re-analysis of the deposited data

Results flagged for a closer look

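The KO effect in DC differed from that in progenitors by a test of the difference itself for 3 of the 95 fitted genes of the lists read here (3.16%), beside 4.57% of all genes. For Fads1, a desaturase of polyunsaturated fatty acids, the difference was -0.48 on the log2 scale (adjusted p = 0.0419, limma), from KO minus WT values of 0.03, -0.02 and 0.15 in the 3 progenitor stages and -0.43 in the DC pair, and the call was lost in 6 of 15 alternatives. For Lrp8, a lipoprotein receptor from the uptake list, it was 0.66 (adjusted p = 0.0209), with 0.61 in DC and -0.05 in progenitors. For Acadl, the long-chain acyl-CoA dehydrogenase, it was -0.45 (adjusted p = 0.0372), with -0.4 in DC and 0.05 in progenitors. Each rests on 1 KO and 1 WT DC array, and no alternative was run for Lrp8 or Acadl.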

How the results depend on the processing

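Over the alternatives for single members, 4986 values kept direction and side of the threshold, 114 lost a call, 65 gained one, 149 changed sign with neither value called, and 4 reversed. The 4 reversals were all in DC against progenitors after quantile normalization: Mvk to 0.08, Pmvk to 0.3, Msmo1 to 0.64 and Scap to 0.17. The cause was not tested.

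Centring each array on its median gave, for regulators at the first step, 2 higher and 1 lower, over the span 1 lower, and for the later minus earlier step 1 lower; no member of the DC pair was then past 1.5-fold, nor at 2-fold (0 members). Quantile normalization gave 1 regulator higher and 3 fatty acid genes lower over the span, 2 fatty acid genes with a lower later step, 4671 genes higher in DC, and 2 members and 1135 genes in the KO effect difference. Without a filter on dim genes, 1 regulator was lower at the first step, 0 higher at the second and 1 higher over the span; 7 genes were called for KO against WT, 1 for Het against WT, 6681 were higher in DC, and 0 members were called in the KO effect difference. A filter of 6 arrays gave 1 fatty acid gene with a higher later step, 2 genes for Het against WT, and 1 fatty acid gene and 1890 genes higher in DC. Array weights gave, at the second step, 9 sterol enzymes higher and 2 lower, 2 regulators lower, 4 fatty acid genes lower and 3416 genes higher; over the span 1 regulator higher and 2 fatty acid genes lower; 1 regulator with a lower later step, 44 genes for Het against WT and 1 fatty acid gene higher in DC. An intensity trend gave 2 fatty acid genes lower over the span and 2 members in the KO effect difference. Without the genotype term, 1 sterol enzyme was lower and 0 regulators higher at the second step, and 1 regulator higher and 2 fatty acid genes lower over the span. With only the 2 stages compared, 1 sterol enzyme was lower and 0 regulators higher at the second step, and 1 regulator higher over the span. Without the WT arrays, 1 regulator was lower at the first step; 0 regulators and 1188 genes were higher and 1 fatty acid gene lower at the second; 3 sterol enzymes, 2 fatty acid genes and 1548 genes had a lower later step (signed difference) and 925 genes a higher one.

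Leaving out 1 array at a time gave these ranges. At the first step, 1 to 2 regulators were higher and 1 to 2 lower. At the second step, 3 to 7 sterol enzymes were higher (3 without WT Pre CFU-E) and 0 to 2 lower, 0 to 1 regulators higher and 0 to 2 lower, 1 to 4 fatty acid genes lower, and 1322 to 2230 genes higher. Over the span, 0 to 1 sterol enzymes and 1 to 3 fatty acid genes were lower, and 1 to 2 regulators higher. A lower later step was called for 4 to 8 sterol enzymes, 2 to 5 fatty acid genes and 1588 to 2679 genes, and a higher one for 953 to 1599 genes. KO against WT gave 1 to 26 genes, Het against WT 1 to 5 and KO against Het 0 to 1. In DC, 1 to 2 regulators and 1 to 2 fatty acid genes were higher. The KO effect difference held 0 to 3 members and 201 to 823 genes.

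The labels number no replicates. The genotype term already compares stages within a genotype, and the fit without it is given above. Array weights were not run for the KO effect difference, in which each DC array is fitted by its own term. Scd1 has no value with the stricter filter, since it was at or above the median on 5 arrays. Low signal limits Scd1 in Pre MegE and Pre CFU-E and Fads2, Fads3 and Tm7sf2 in DC.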
